A study of Mus musculus with 20 samples.

Results

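Integrins and laminins form a receptor system and its matrix ligand. The 35 genes described here are those whose array row carries exactly 1 symbol of an integrin alpha chain (17 genes), an integrin beta chain (8 genes) or a laminin chain (10 genes), out of 30142 genes measured. Each had a single row, and the rule used no expression value. RNA was measured on 20 Affymetrix whole-transcript arrays of mouse bladders and metastases, as log2 expression levels.

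The mice, called CKO, were of FVB/N background. All groups, the normal bladders included, carried floxed alleles of Rb1 and of other tumour suppressor genes, and were p107-/- (Rbl1) per the labels. The groups were metastases of these mice (arrays M1 to M4), 1 metastasis titled PALBO-MET, treated bladders (PALBO1 to PALBO3), tumour bladders (TUMOR1 to TUMOR7) and normal bladders (CT1, CT2, CT4, CT5 and CT6). Tumour bladders had been inoculated with an adenovirus that carries Cre recombinase, which deletes floxed alleles in cells that make it. Treated bladders were inoculated in the same way and came from mice given palbociclib, an inhibitor of Cdk4 and Cdk6, into the peritoneum at 150 mg/kg each day for 28 days, with CDDP (cisplatin) at 6 mg/kg once a week. The labels give no age, do not say which cells the virus reached, which organ a metastasis was taken from, or whether each array stands for an animal of its own. All p-values here rest on the spread among these arrays, which may be technical. The samples are whole pieces of tissue, so fewer cells of a type and less RNA per cell cannot be told apart.

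An integrin is a pair of 1 alpha and 1 beta chain in the cell membrane, which binds matrix or other cells outside and, through talin and kindlins, the actin skeleton inside. A laminin is a trimer of an alpha, a beta and a gamma chain, secreted into the basement membrane under epithelium and around muscle, nerve and vessel cells. In the bladder, basal urothelial cells hold to their basement membrane through the integrin of the Itga6 and Itgb4 chains, smooth muscle cells lie in a sheath that contains the Lama2 chain, and leukocytes carry integrins that share the Itgb2 chain.

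The promoters of 3 genes are shown because of where they were highest in the results: Itgam on metastasis M1, and Lamb1 and Itga5 on tumour bladder TUMOR6. Each is 300 bases on the gene's strand, 250 before and 50 after the annotated start, from RefSeq with build GRCm38.p6. Capitals mark matches, on either strand, to GAGGAA (the core bound by PU.1, a factor of myeloid cells) in Itgam, and to GGGCGG (a core of Sp1) in Lamb1 and Itga5. Itgam lies on chr7:128062390-128062689 (plus strand), Lamb1 on chr12:31265043-31265342 (plus strand) and Itga5 on chr15:103366742-103367041 (minus strand).
Itgam: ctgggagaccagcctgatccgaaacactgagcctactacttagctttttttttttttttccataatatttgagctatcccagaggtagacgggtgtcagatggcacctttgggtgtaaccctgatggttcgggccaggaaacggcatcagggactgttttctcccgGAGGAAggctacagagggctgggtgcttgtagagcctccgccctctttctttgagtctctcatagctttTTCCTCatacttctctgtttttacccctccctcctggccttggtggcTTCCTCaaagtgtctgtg
Lamb1: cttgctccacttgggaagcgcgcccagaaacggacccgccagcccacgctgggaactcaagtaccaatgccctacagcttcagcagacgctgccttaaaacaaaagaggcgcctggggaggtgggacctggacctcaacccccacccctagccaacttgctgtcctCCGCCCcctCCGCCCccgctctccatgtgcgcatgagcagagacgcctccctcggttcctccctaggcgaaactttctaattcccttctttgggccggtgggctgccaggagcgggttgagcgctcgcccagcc
Itga5: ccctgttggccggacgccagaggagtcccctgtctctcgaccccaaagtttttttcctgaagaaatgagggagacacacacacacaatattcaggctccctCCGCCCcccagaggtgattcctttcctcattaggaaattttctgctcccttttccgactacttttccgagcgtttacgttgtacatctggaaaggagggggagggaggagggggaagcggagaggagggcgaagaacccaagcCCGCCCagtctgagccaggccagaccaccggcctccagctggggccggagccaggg
The Itgam window held 3 matches to GAGGAA, and the Lamb1 and Itga5 windows held 2 matches each to GGGCGG. Unmarked here are 1 match to GGGCGG in Itgam and 1 match to GAGGAA in each of Lamb1 and Itga5. Of the 35 genes, 22 had a promoter in the table. They had 25 windows, since some have more than 1 start. GAGGAA was present in 14 of the 25 windows, against 28.3% of 32851 windows of all genes. GGGCGG was present in 12, against 35.7%, and TGANTCA (AP-1, where N is any base) in 3, against 7.81%. A match is only a run of letters and does not show a bound site.

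Array medians lay between 5.11 and 5.48. The row of Rb1 had 5.70 to 6.23 on metastases, 5.82 to 6.23 on treated, 5.45 to 6.45 on tumour and 5.78 to 6.32 on normal bladders, so it did not separate the groups. The row of Rbl1 had 6.32 to 8.30 on metastases, 6.02 to 7.65 on treated, 6.15 to 7.13 on tumour and 6.27 to 6.79 on normal bladders, above the array medians although the labels give the gene as deleted in all. Which exons either allele lacks is not given in the labels, so these rows do not check the genotypes. On 8 arrays (M3, M4, TUMOR3, TUMOR4, TUMOR5, CT4, CT5 and CT6), dim rows were noisy and the deviations of bright genes followed those of no other array, with a highest correlation of 0.21. This low-contrast set cuts across the groups, with 2 metastases, 3 tumour bladders and 3 normal bladders. The other 12 arrays are 2 metastases (M1 and M2), PALBO-MET, 3 treated, 4 tumour and 2 normal bladders (CT1 and CT2). The main differences are given over all arrays and also within the set and among the other 12 arrays. Among those 12, every difference from normal bladders rests on CT1 and CT2. For integrins and laminins the median SD among the 12 arrays was 0.26, against 0.12 within the set, and 34 of the 35 genes spread more widely among the 12. Over all genes the medians were 0.27 and 0.25, with 50.2% wider among the 12. For all but 3 members (Itgad, Lama1 and Lamb3) the mean level lay above 5.10, the 40th percentile of all rows. Of the 30142 genes, 19898 did. The set was itself chosen by its noise in dim rows. The spread of the members and that of all genes are thus not compared at like levels, and the contrast shows no trait of the family.

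**Figure D1:**
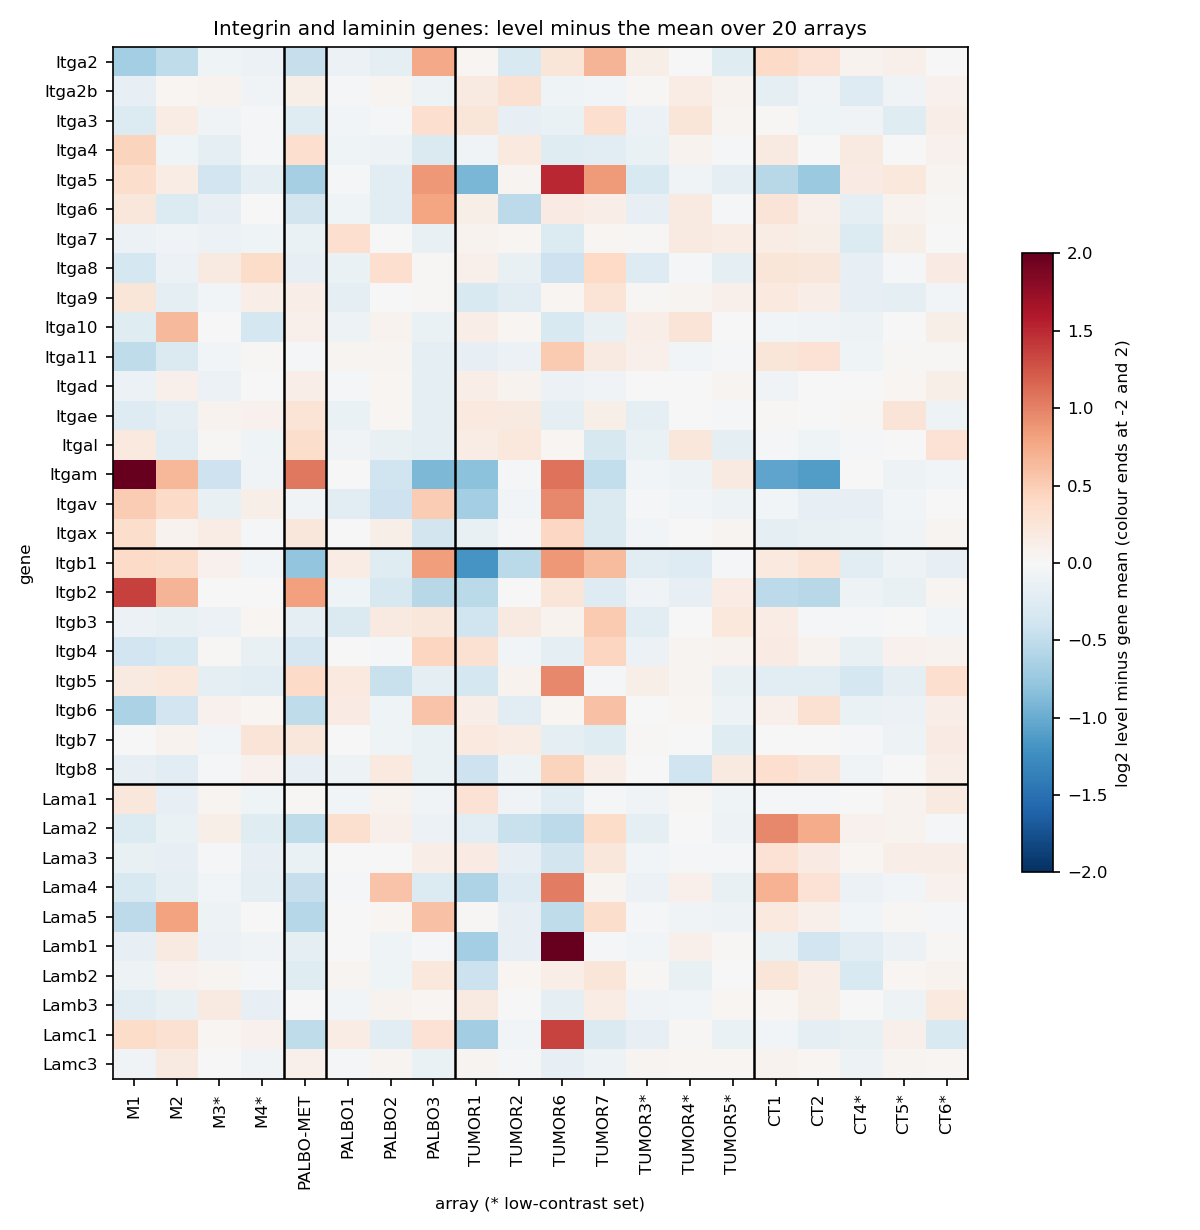
Heat map of the 35 genes (rows) on the 20 arrays (columns, grouped as metastasis, PALBO-MET, treated, tumour and normal), coloured by the log2 level minus the gene's mean over all arrays. The strongest colours lie in TUMOR6 (Lamb1 at 8.67, Lamc1 at 7.89) and M1 (Itgam at 8.82), while the low-contrast arrays are pale.

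No integrin or laminin gene passed limma's test at an adjusted p of 0.05 in any of the 5 comparisons, nor did any of the 30142 genes (0% called in each). Of metastases against normal bladders, 6 of the 35 genes had an unadjusted p under 0.05, beside 6.91% of all genes: Itgb2 and Itgam were higher, and Lama3, Itga2, Lama2 and Itga11 were lower. Of metastases against tumour bladders, 3 did (Itgb2 higher, Itga2 and Itgb4 lower), beside 5.79% of all genes. Of tumour against normal bladders, 2 did (Itga2b higher, Lama2 lower), beside 4.25%. None of the 35 did for treated against tumour bladders, where all genes gave 0.342%, or for treated against normal bladders, where they gave 0.358%.

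Few genes kept 2 groups apart on every array. Metastases and normal bladders did not overlap for 2 of the 35 genes (Itga2 and Lama3), beside 2.85% of all genes. Treated and normal bladders did not overlap for 1 (Itga4), beside 0.65%. No member separated metastases from tumour bladders (0.504% of all genes), treated from tumour bladders (0.129%) or tumour from normal bladders (0.166%).

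The integrins as a group lay near the average of all genes. For metastases against tumour bladders 10 of 25 integrins and 6 of 10 laminins were higher, beside 43.9% of all genes, with medians of -0.045 for integrins, 0.021 for laminins and -0.026 for all genes. For metastases against normal bladders 11 integrins and 2 laminins were higher, beside 47.3% of all genes, with medians of -0.053, -0.028 and -0.013 in the same order. The laminins were mostly higher in treated than in tumour bladders, in 8 of 10 with a median of 0.075, as were 10 integrins, beside 42.6% of all genes with a median of -0.023. For treated against normal bladders 12 integrins and 4 laminins were higher, beside 46.7%. For tumour against normal bladders 14 integrins and 2 laminins were higher, beside 53.1%, and the median was -0.054 for laminins and 0.012 for all genes. Each comparison shares a group with another, so these counts are not independent of each other.

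The matrix ligands come first. Lama2 encodes the laminin alpha chain of the sheath around muscle and Schwann cells. It measured 5.73, 5.86, 6.12 and 5.75 on metastases M1 to M4 and 5.50 on PALBO-MET. Treated bladders had 6.32, 6.10 and 5.89, and tumour bladders ran between 5.48 and 6.36 with a median of 5.81. Normal bladders had 6.95, 6.74, 6.09, 6.07 and 5.97, so CT1 and CT2 stood above all other arrays. Tumour bladders averaged 5.84 ± 0.30 (SD, n = 7) and normal bladders 6.37 ± 0.45 (SD, n = 5), a log2 difference of -0.53 with a standard error of 0.18 (limma adjusted p = 0.998). The difference was -1.06 among the 12 arrays and -0.14 within the low-contrast set. Metastases were lower than normal bladders by 0.50 on the log2 scale (adjusted p = 0.72 in limma), by 1.05 among the 12 arrays and by 0.11 within the set. Treated bladders differed by 0.27 from tumour bladders and by -0.26 from normal bladders, with intervals of -0.18 to 0.71 and -0.73 to 0.21, both of which include 0. The gap to normal bladders was -0.74 among the 12 arrays, where CT1 and CT2 are the normal bladders.

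The 3 arrays with the highest Lama2 also had the highest smooth muscle levels. The mean level of 12 smooth muscle markers, all measured, was 5.54 to 6.66 in metastases, 6.72 to 8.07 in treated bladders, 5.48 to 9.40 in tumour bladders and 6.64 to 8.44 in normal bladders. CT1 and CT2 had 8.44 each, and TUMOR7, with 9.40, had the next highest Lama2 level, 6.36. The order did not hold among treated bladders. PALBO3 had a smooth muscle mean of 8.072 with Lama2 at 5.888, and PALBO1 had 6.723 with Lama2 at 6.325. CT1 and CT2 also had Xist, the RNA that silences an X chromosome in females, at 11.7, and PALBO3 at 10.05, against 5.43 to 5.87 on the tumour bladders among the 12 arrays. Metastases M1 and M2 had Xist at 5.443 and 5.725. The labels give no sex. The part of muscle content or sex was not tested for Lama2, nor for any other difference from normal bladders among the 12 arrays.

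Lama3, the epithelial alpha chain that anchors hemidesmosomes, separated metastases from normal bladders on every array. It had 5.41, 5.39, 5.53 and 5.40 on M1 to M4, against 5.85, 5.73, 5.60, 5.69 and 5.70 on CT1, CT2, CT4, CT5 and CT6. PALBO-MET, at 5.42, lay among the metastases. The means were 5.43 ± 0.064 in metastases (SD, n = 4) and 5.71 ± 0.090 in normal bladders (SD, n = 5), a log2 difference of -0.28 with a standard error of 0.11 (limma adjusted p = 0.72). The direction was the same among the 12 arrays (-0.38) and within the low-contrast set (-0.20). Tumour bladders overlapped both, between 5.20 and 5.78 with a median of 5.53, and treated bladders had 5.56, 5.57 and 5.70. Lamb3, its beta chain partner, was dim, with 4.84 to 5.25 on metastases and 4.97 to 5.26 on normal bladders.

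Lamb1, Lamc1 and Lama4 encode the chains of a laminin of blood vessels and stroma. All were highest on TUMOR6. Lamb1 measured 8.67 there, and between 5.87 and 6.66 on the other tumour bladders. It had 6.38, 6.73, 6.43 and 6.49 on metastases, 6.36 on PALBO-MET, and 6.55, 6.47 and 6.51 on treated bladders, and normal bladders lay between 6.16 and 6.57. Apart from TUMOR6 the groups overlapped. Tumour bladders averaged 6.74 ± 0.89 (SD, n = 7) and normal bladders 6.38 ± 0.15 (SD, n = 5), a log2 difference of 0.36, which was 0.038 without TUMOR6.

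Lamc1, the gamma chain of most laminins, measured 7.89 on TUMOR6, against 5.84 to 6.55 on the other tumour bladders and 6.23 to 6.64 on normal bladders. Metastases had 6.90, 6.84, 6.58 and 6.62, and averaged 0.31 more than normal bladders on the log2 scale, with an interval of -0.25 to 0.88. Lama4 measured 7.84 on TUMOR6, with a range of 6.20 to 6.92 on the other tumour bladders. Its next highest values were 7.52 on CT1 and 7.39 on PALBO2, and metastases lay lower, at 6.52, 6.62, 6.77 and 6.64. The mean level of the 8 fibroblast genes measured was 8.71 on TUMOR6, against 6.10 to 7.27 on the other tumour bladders, and the neutrophil list had 7.73 there. Their part in the laminin levels of that array was not tested.

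**Figure D2:**
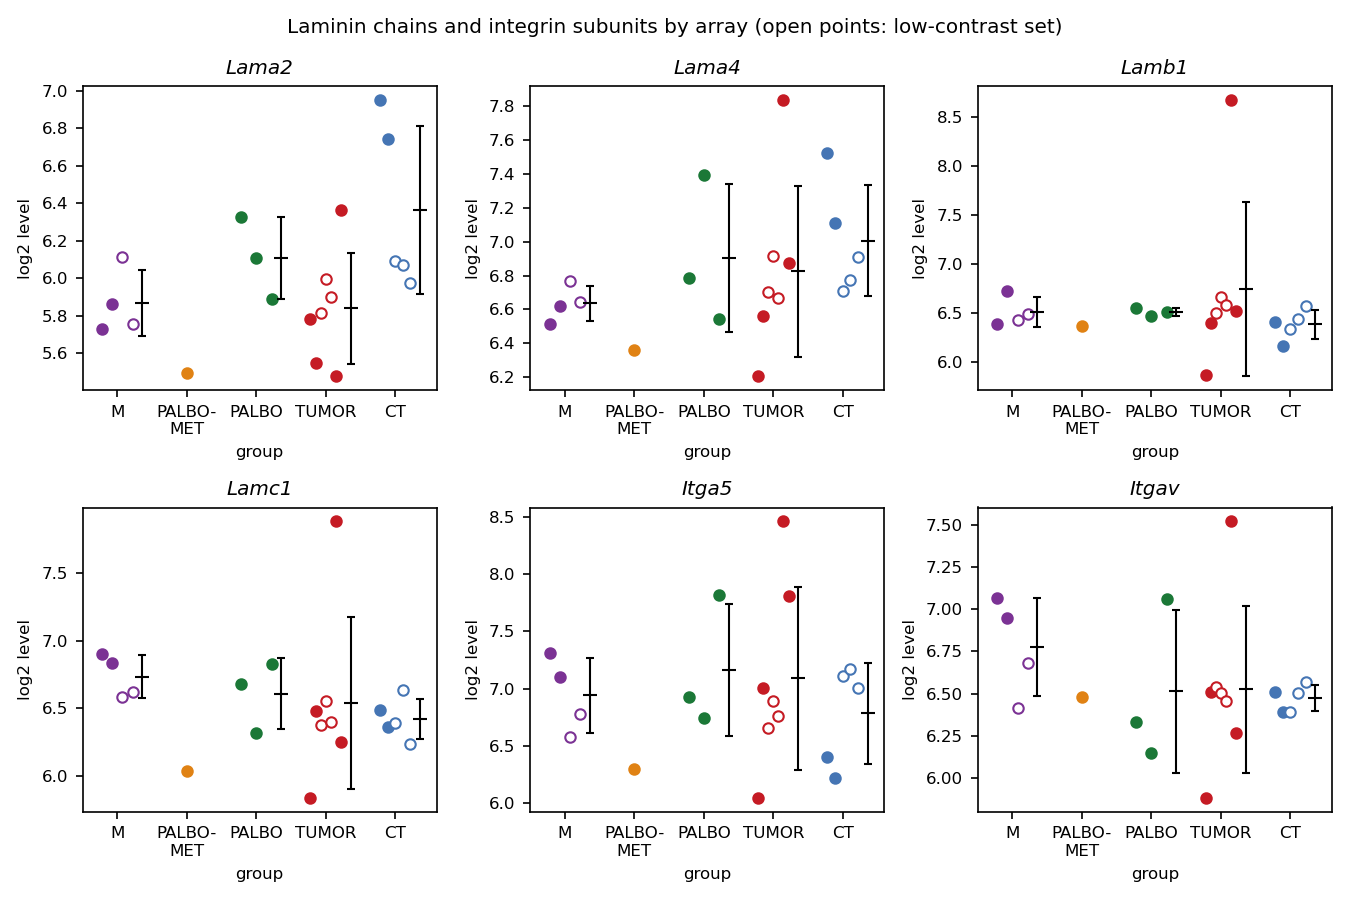
Log2 level of Lama2, Lama4, Lamb1, Lamc1, Itga5 and Itgav on each array, by group, with the group mean and SD as bars for groups over 1 array and open points for the low-contrast set. TUMOR6 is the highest point for Lamb1 (8.67), Lamc1 (7.89), Lama4 (7.84), Itga5 (8.46) and Itgav (7.52), and CT1 and CT2 are the highest for Lama2.

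Lama5, the alpha chain of most epithelial and vessel basement membranes in the adult, varied by array rather than by group. It had 5.27, 6.61, 5.70 and 5.82 on M1 to M4, so M1 and M2 were near both ends of the range. Treated bladders had 5.79, 5.84 and 6.38, and tumour bladders 5.29 to 6.16 with a median of 5.73, a log2 difference of 0.27 with an interval of -0.18 to 0.73. Without PALBO3 it was 0.084. Lamb2, the beta chain of the synaptic and vascular sheath, lay between 5.70 and 6.37 on all arrays. Lamc3 lay between 5.16 and 5.51, and Lama1, the embryonic alpha chain, between 4.87 and 5.38.

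Among the receptors for laminin, Itgb4, the beta chain of hemidesmosomes, was the one with a p under 0.05. It had 5.31, 5.40, 5.72 and 5.54 on M1 to M4 and 5.36 on PALBO-MET, against 5.50 to 6.13 on tumour bladders, with a median of 5.76. The groups overlapped, and the metastases of the low-contrast set lay within the tumour range. Metastases averaged 5.49 ± 0.18 (SD, n = 4) and tumour bladders 5.76 ± 0.23 (SD, n = 7), a log2 difference of -0.27 (limma adjusted p = 0.861), which was -0.47 among the 12 arrays and -0.063 within the set. Its partner Itga6 had 6.52, 6.01, 6.13 and 6.29 on metastases and 5.76 to 6.46 on tumour bladders, a log2 difference of -0.031 with an interval of -0.40 to 0.34. The highest Itga6 level of all arrays was 7.07, on PALBO3.

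Itgb4 levels went with epithelial marker levels. The basal urothelial list (8 of 10 genes measured) had 5.32 to 5.73 in metastases, against 5.60 to 6.27 in tumour bladders and 5.73 to 5.98 in normal bladders. The luminal list (11 of 12 measured) had 5.26 to 6.68 in metastases, 5.27 to 9.42 in tumour bladders and 6.56 to 8.03 in normal bladders. Of the 8 basal genes, 7 were lower and 1 higher in metastases than in tumour bladders. Against normal bladders, 5 were lower and 3 higher. Krt5, a basal keratin, had 5.02, 5.44, 6.45 and 6.59 on M1 to M4, against 5.54 to 9.38 on tumour bladders. The part of epithelial content in the Itgb4 difference was not tested.

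Itga3, which pairs with Itgb1 to bind laminin in epithelium, lay between 5.75 and 6.36 on all arrays. Treated bladders had 5.96, 6.00 and 6.36, and averaged 0.14 above normal bladders on the log2 scale, a value that was 0.013 without PALBO3. Itga7, the laminin receptor of muscle, was highest on PALBO1, at 5.99. That array also had the highest mean of the 7 skeletal muscle genes, 8.85, against 5.17 to 6.65 on the other arrays.

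Itga2 and Itga11 are alpha chains of collagen receptors, Itga2 in epithelium and platelets and Itga11 in fibroblasts. Itga2 measured 5.06, 5.24, 5.66 and 5.63 on M1 to M4 and 5.28 on PALBO-MET. Treated bladders had 5.63, 5.57 and 6.51, tumour bladders 5.44 to 6.42 with a median of 5.78, and normal bladders 6.12, 6.03, 5.81, 5.84 and 5.75. All metastases thus lay below all normal bladders. Metastases averaged 5.40 ± 0.30 (SD, n = 4) and normal bladders 5.91 ± 0.16 (SD, n = 5), a log2 difference of -0.51 with a standard error of 0.21 (limma adjusted p = 0.72). Against tumour bladders, at 5.82 ± 0.33 (SD, n = 7), the difference was -0.42 (limma adjusted p = 0.857). The gap to normal bladders was -0.93 among the 12 arrays and -0.16 within the low-contrast set.

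Itga11 had 5.04, 5.27, 5.49 and 5.57 on M1 to M4, against 5.39 to 6.07 on tumour bladders and 5.80, 5.84, 5.47, 5.57 and 5.57 on normal bladders. The log2 difference was -0.27 against tumour bladders and -0.31 against normal bladders, and within the low-contrast set both were near 0 (-0.015 and -0.0032). Itga10, also a collagen receptor chain, lay between 5.03 and 6.02, and its extremes were both metastases, M4 and M2. Itga1, another such chain, shares its row with another symbol and was not used.

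**Figure D3:**
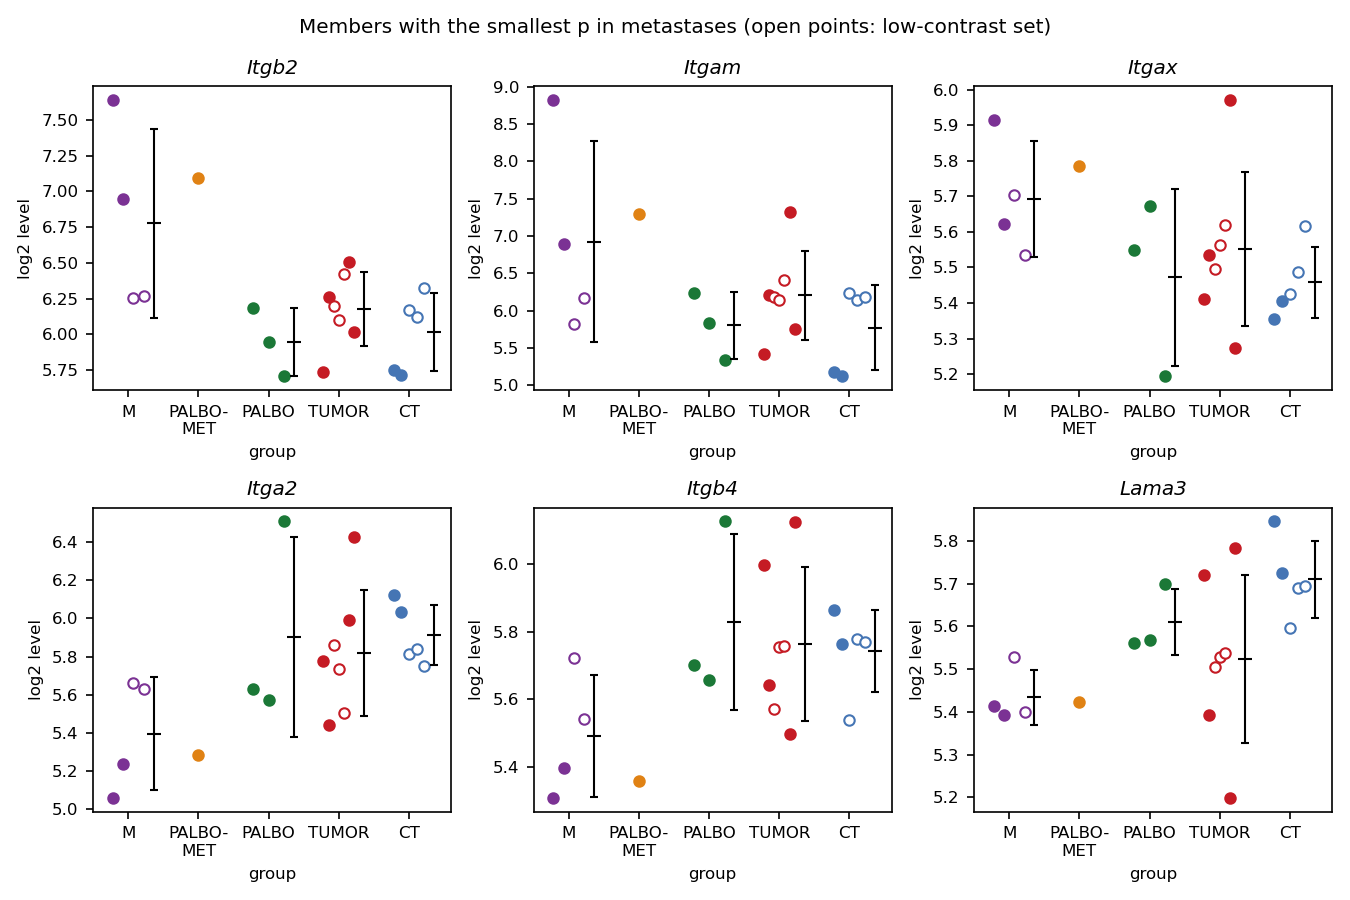
Log2 level of Itgb2, Itgam, Itgax, Itga2, Itgb4 and Lama3 on each array, by group (M, PALBO-MET, PALBO, TUMOR and CT), with the group mean and SD as bars and open points for the low-contrast set. M1 stands highest for Itgb2 (7.64) and Itgam (8.82), and all 4 metastases lie below the normal bladders for Itga2 and Lama3.

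The receptors of fibronectin and vitronectin differed more between single arrays than between groups. Itga5, which pairs with Itgb1 as the main fibronectin receptor, measured 8.46 on TUMOR6, 7.81 on TUMOR7 and 7.82 on PALBO3. It had 7.31, 7.10, 6.58 and 6.78 on metastases, 6.93 and 6.75 on the other treated bladders, and 6.41, 6.22, 7.11, 7.17 and 7.01 on normal bladders. Treated bladders exceeded normal bladders by 0.38 on the log2 scale, with an interval of -0.49 to 1.25, and by 0.053 without PALBO3. Among the 12 arrays the difference was 0.85. Itgb1, the beta chain shared by the laminin, collagen and fibronectin receptors, had its highest levels on TUMOR6 (8.73), PALBO3 (8.70) and TUMOR7 (8.49) too, and its lowest on TUMOR1 (6.69). Treated bladders, at 8.01, 7.62 and 8.70, averaged 0.35 more than tumour bladders, and 0.055 more without PALBO3.

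Itgav, the alpha chain of the vitronectin receptors, measured 7.52 on TUMOR6, against 5.88 to 6.54 on the other tumour bladders. Metastases had 7.07, 6.95, 6.41 and 6.68, and normal bladders 6.39 to 6.57, a log2 difference of 0.30 with an interval of -0.21 to 0.82. Its partner Itgb5 measured 8.31 on TUMOR6, against 7.01 to 7.48 on the other tumour bladders. Tumour bladders exceeded normal bladders by 0.23 for Itgb5, and by 0.087 without TUMOR6.

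Itgb6 and Itgb8 encode beta chains that pair with Itgav to release active TGF-beta, Itgb6 in epithelium. Itgb6 had 4.79, 5.04, 5.50 and 5.46 on M1 to M4 and 4.91 on PALBO-MET, against 5.22 to 6.01 on tumour bladders. The 3 lowest levels of all arrays were thus metastases outside the low-contrast set, and PALBO3 (6.00) and TUMOR7 (6.01) were highest. The log2 difference to tumour bladders was -0.30 with an interval of -0.65 to 0.049, and was -0.65 among the 12 arrays and 0.075 within the set. Itgb8 lay between 5.09 and 5.94.

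Itga2b and Itgb3 form the fibrinogen receptor of platelets. Itga2b lay between 5.45 and 5.84 in tumour bladders, with a median of 5.61, against 5.35, 5.45, 5.27, 5.47 and 5.62 in normal bladders. The groups overlapped, with means of 5.61 ± 0.14 (SD, n = 7) and 5.43 ± 0.13 (SD, n = 5), and a log2 difference of 0.18 (limma adjusted p = 0.998). Itgb3 was lowest on TUMOR1 and highest on TUMOR7, at 5.91. The 5 platelet genes measured averaged 5.09 to 5.33 in tumour bladders and 5.18 to 5.35 in normal bladders. Itga8, a receptor of mesenchymal and smooth muscle cells, lay between 5.43 and 6.24, and Itga9, which binds tenascin, between 5.96 and 6.53.

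Leukocyte integrins gave the largest log2 differences of the 35 genes. Itgb2, the CD18 chain shared by all CD11 integrins, measured 7.64, 6.94, 6.25 and 6.27 on M1 to M4 and 7.10 on PALBO-MET. Treated bladders had 6.18, 5.95 and 5.71, tumour bladders 5.73 to 6.50 with a median of 6.20, and normal bladders 5.75, 5.71, 6.17, 6.12 and 6.33. The 3 metastases outside the low-contrast set thus lay above every bladder, and the other metastases among the bladders. Metastases averaged 6.78 ± 0.66 (SD, n = 4), tumour bladders 6.18 ± 0.26 (SD, n = 7) and normal bladders 6.02 ± 0.27 (SD, n = 5).

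For Itgb2 the log2 difference was 0.60 against tumour bladders (standard error 0.22, limma adjusted p = 0.841) and 0.76 against normal bladders (standard error 0.24, limma adjusted p = 0.717). Among the 12 arrays the differences were 1.16 and 1.56, and within the low-contrast set 0.021 and 0.055. Without M1 they were 0.31 and 0.47. With PALBO-MET counted as a metastasis they were 0.66 and 0.82.

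Itgam, the alpha chain of macrophages and neutrophils known as CD11b, followed Itgb2. It measured 8.82, 6.90, 5.82 and 6.17 on M1 to M4 and 7.29 on PALBO-MET, against 6.24, 5.84 and 5.34 on treated bladders. Tumour bladders lay between 5.42 and 7.32, with a median of 6.18 and TUMOR6 highest, and normal bladders had 5.18, 5.12, 6.24, 6.14 and 6.19. The mean was 6.93 ± 1.34 in metastases (SD, n = 4), 6.21 ± 0.59 in tumour bladders (SD, n = 7) and 5.78 ± 0.57 in normal bladders (SD, n = 5). The log2 difference was 1.15 against normal bladders (limma adjusted p = 0.72) and 0.72 against tumour bladders (limma adjusted p = 0.869). Without M1 these were 0.52 and 0.088, and within the low-contrast set they had the opposite sign, at -0.20 and -0.25. CT1 and CT2, the normal bladders outside that set, had the lowest Itgam levels of all arrays.

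Itgax, the CD11c chain of dendritic cells and macrophages, had 5.92, 5.62, 5.70 and 5.53 on M1 to M4 and 5.78 on PALBO-MET. The highest level was 5.97 on TUMOR6, and normal bladders lay between 5.36 and 5.62. The log2 difference of metastases was 0.14 against tumour bladders and 0.24 against normal bladders, with intervals of -0.12 to 0.40 and -0.040 to 0.51. Itgal, the LFA-1 alpha chain of lymphocytes, did not follow: it had at most 5.40 on metastases, against 4.90 to 5.45 on tumour bladders, and was highest on PALBO-MET, at 5.57. Treated bladders had 5.14, 5.07 and 5.01, a log2 difference of -0.14 to tumour bladders with an interval of -0.41 to 0.13. Itgad, a further partner of Itgb2, was dim, at 4.86 to 5.17.

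Macrophage markers were high where Itgb2 and Itgam were. The mean of the 11 macrophage genes, all measured, was 7.85, 6.89, 6.23 and 6.30 on M1 to M4 and 7.54 on PALBO-MET, against 5.72 to 6.20 in treated, 5.88 to 6.85 in tumour and 5.63 to 6.47 in normal bladders. Of these genes, 10 were higher in metastases than in normal bladders, beside 47.3% of all genes. For 6 of them (Adgre1, C1qa, C1qc, Cd68, Csf1r and Mrc1) the unadjusted p in limma was under 0.05, beside 3.1% of all genes. None passed after adjustment. Among the 12 arrays these 6 differed, in that order, by 1.175, 2.39, 0.70, 2.61, 1.37 and 2.13. Within the low-contrast set they differed by 0.15, -0.028, 0.51, -0.38, -0.075 and 0.033. The neutrophil list was highest on TUMOR6 (7.73) and PALBO-MET (7.47) and had 6.12 to 6.42 on M1 to M4. The part of these cells in the integrin levels was not tested.

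Itga4, Itgb7 and Itgae encode chains of lymphocyte receptors, of which Itga4 binds VCAM-1 on vessel walls and Itgae E-cadherin on epithelium. Itga4 had 5.39, 5.37 and 5.18 on treated bladders, all below the 5.65, 5.47, 5.65, 5.48 and 5.55 of normal bladders. The log2 difference was -0.25 with a standard error of 0.13 and did not pass the test (limma adjusted p = 1). Tumour bladders, at 5.22 to 5.67, overlapped both, and the highest levels of all arrays were 5.91 on M1 and 5.80 on PALBO-MET. Itgb7 lay between 5.66 and 6.16 and Itgae between 5.01 and 5.56. The T and NK cell list had 5.07 to 5.36 in treated bladders, 5.31 to 5.55 in tumour bladders and 5.20 to 5.50 in normal bladders.

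**Figure D4:**
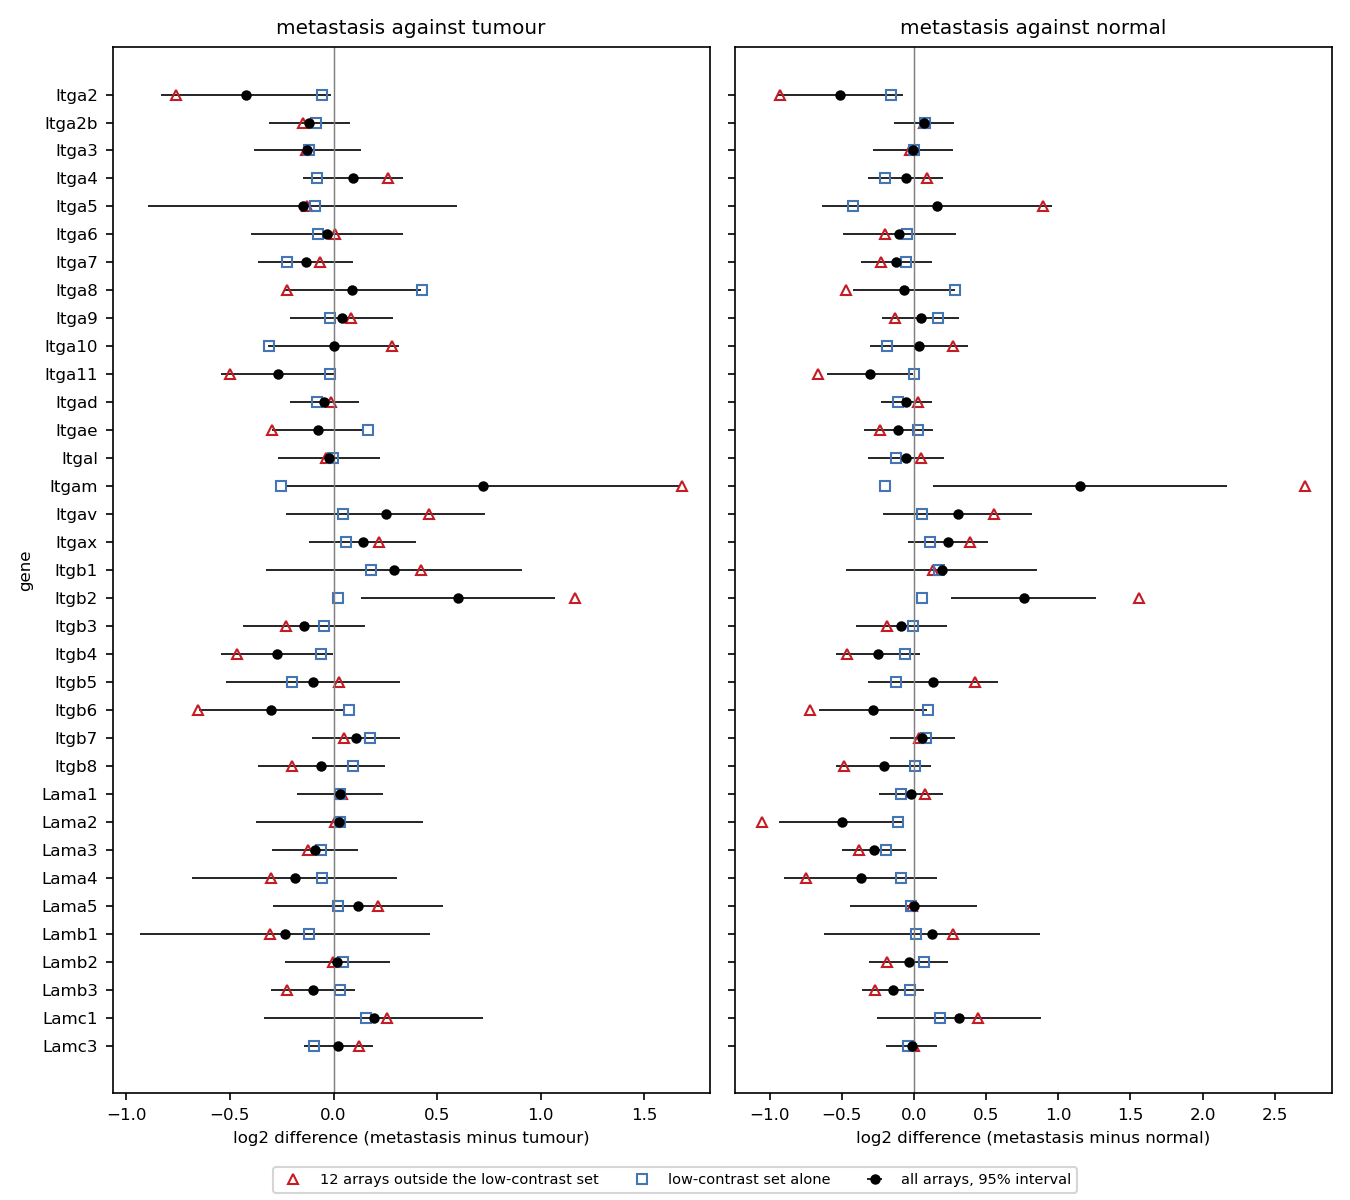
Log2 difference of each of the 35 genes for metastases against tumour bladders (left) and against normal bladders (right), with the 95% interval over all arrays (black), the value among the 12 arrays outside the low-contrast set (triangles) and within that set (squares). Itgam and Itgb2 have the largest positive values among the 12 arrays, 2.71 and 1.56 against normal bladders, and lie near 0 or below it within the set.

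The 17 genes that no comparison brought forward had log2 differences between -0.37 (Lama4) and 0.31 (Lamc1), both for metastases against normal bladders, and no p under 0.162. Over the 12 arrays, TUMOR6 was the highest array for 7 of 25 integrins and 3 of 10 laminins and the lowest for 3 integrins and 4 laminins. TUMOR1 was the lowest for 6 integrins and 4 laminins. M1 was the highest for 3 integrins and the lowest for 6.

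Chains that assemble with each other were compared across arrays for 13 partner pairs, within each kind of array, which gave 26 relations. The 12 arrays come from all groups, so differences between groups enter these values. Itgam and Itgb2 had a Pearson's r of 0.96 over the 12 arrays (permutation p = 1e-05, the smallest that 100000 permutations can give, adjusted p = 0.00026) and a Spearman's rho of 0.93 (permutation p = 5e-05). Without M1 and TUMOR6, the arrays farthest from the median, r was 0.98. Lama3 and Lamb3 had an r of 0.79 (permutation p = 0.00217, adjusted p = 0.0264) and a rho of 0.83 (permutation p = 0.0018), and r was 0.80 without TUMOR6 and CT1. Both chains are part of 1 epithelial laminin.

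Itgax and Itgb2 had an r of 0.77 (permutation p = 0.00305, adjusted p = 0.0264) and a rho of 0.79 (permutation p = 0.00324), and r was 0.75 without TUMOR6 and M1. Itga5 and Itgb1 had an r of 0.77 (permutation p = 0.00445, adjusted p = 0.0289) and a rho of 0.83 (permutation p = 0.00128), and r was 0.63 without TUMOR6 and TUMOR1. For Itgav and Itgb5, r was 0.71 (permutation p = 0.00929, adjusted p = 0.0483) but 0.32 without TUMOR6 and TUMOR1, so that relation rested on those arrays, and rho, at 0.59, had an adjusted permutation p of 0.239. The hemidesmosome pair Itga6 and Itgb4 had an r of 0.55 (permutation p = 0.0645, adjusted p = 0.277) and a rho of 0.45 (permutation p = 0.139). None of the 13 pairs passed within the 8 arrays, where Itgam and Itgb2 had an r of 0.35 (exact permutation p = 0.388) and a rho of 0.52 (exact permutation p = 0.197).

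**Figure D5:**
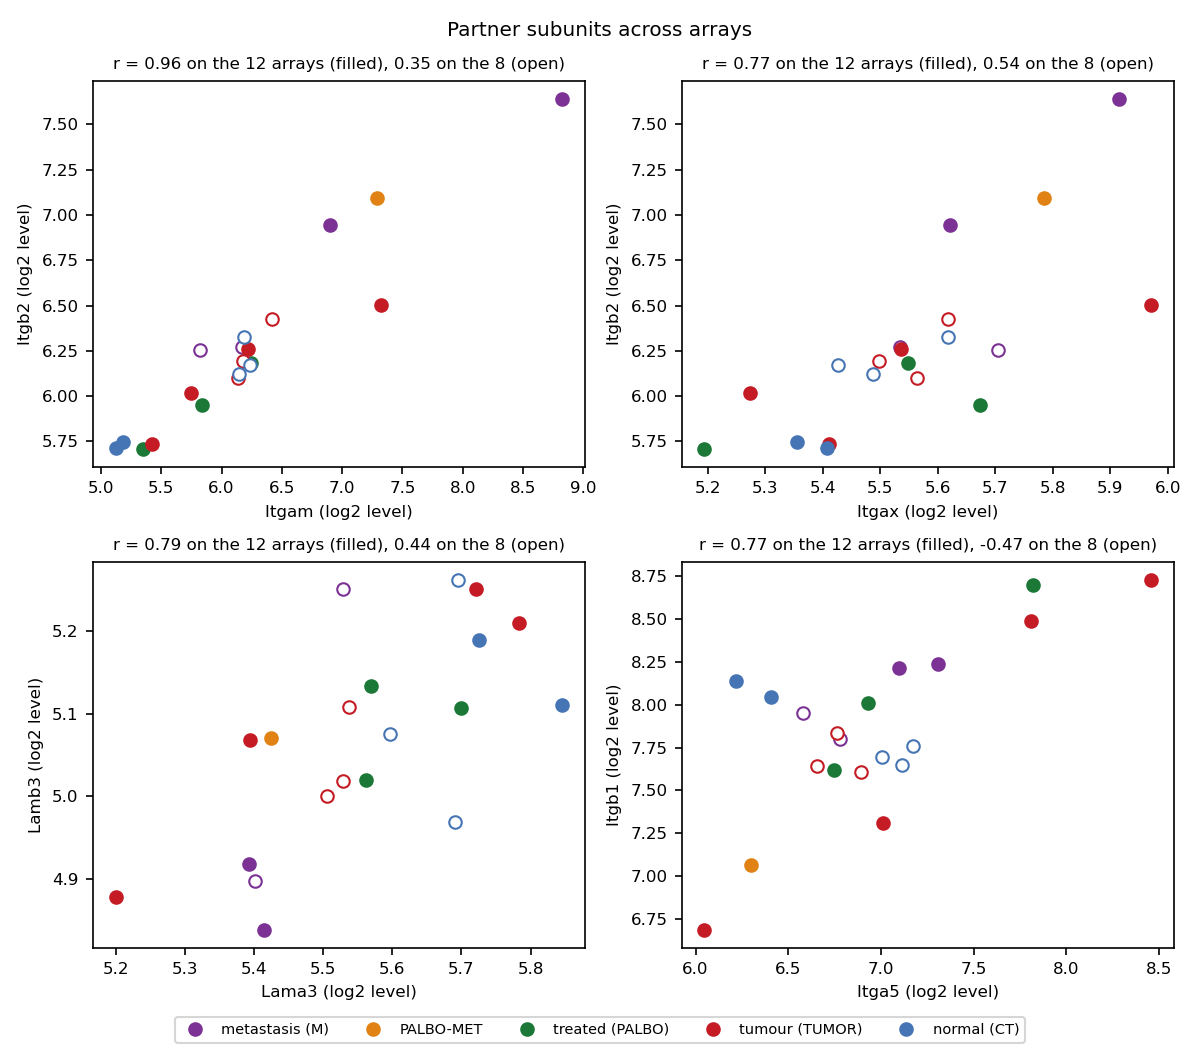
Log2 level of one chain against that of its partner for Itgam and Itgb2, Itgax and Itgb2, Lama3 and Lamb3, and Itga5 and Itgb1, 1 point per array coloured by group, with open points for the low-contrast set. M1, M2 and PALBO-MET lie at the upper right for Itgam and Itgb2, and r over the 12 other arrays is 0.96, 0.77, 0.79 and 0.77.

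Genes with the pattern most like that of a member were searched among 2622 bright genes over the same 12 arrays, as a description. Nearest to Itgb2 were Cfp (properdin, r = 0.98), Cybb (the phagocyte oxidase subunit, r = 0.98), Lilrb4a (r = 0.97), Ccl9 (r = 0.95) and Lyz1 (lysozyme, r = 0.94). Nearest to Itgb4 were Gsdmc2 (r = 0.94), Ivl (involucrin, of squamous epithelium, r = 0.93) and Sprr2b (r = 0.91). Nearest to Itga8 were Tnnt2 (r = 0.88), Upk3a (a uroplakin, r = 0.86) and Myh11 (smooth muscle myosin, r = 0.86).

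Genes that act with integrins gave no call either. Of 29 adaptors and focal adhesion genes, 27 were measured, and for metastases against normal bladders 4 were higher and 1 lower at an unadjusted p under 0.05, beside 3.1% of all genes higher and 3.81% lower. Fermt3, the kindlin of blood cells, had 6.42, 6.08, 5.77 and 5.74 on M1 to M4 and 6.10 on PALBO-MET, against 5.33, 5.42, 5.45, 5.82 and 5.93 on normal bladders, a log2 difference of 0.41 (limma adjusted p = 0.72), which was 0.87 among the 12 arrays and 0.021 within the low-contrast set. Tns3 (tensin, log2 difference 0.58), Parvb (parvin, 0.38) and Zyx (zyxin, 0.28) were the other higher ones. Among the 12 arrays they differed by 1.235, 0.71 and 0.38, and within the set by 0.0038, 0.073 and 0.19. Fermt1, the kindlin of epithelium, had 4.98, 5.15, 5.40 and 5.42 on M1 to M4, against 5.47 to 5.73 on normal bladders, a log2 difference of -0.39 (limma adjusted p = 0.72). That difference was -0.65 among the 12 arrays and -0.17 within the set.

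Against tumour bladders, Fermt3 alone of the adaptors had a p under 0.05, with a log2 difference of 0.30 in metastases (limma adjusted p = 0.861). It was 0.58 among the 12 arrays and 0.0099 within the low-contrast set. Among 6 hemidesmosome genes, Krt5 had a p under 0.05 for metastases against normal bladders, with a log2 difference of -1.53 (limma adjusted p = 0.72). That difference was -3.04 among the 12 arrays and -0.32 within the set. Of the 6 genes, 3 were higher and 3 lower in metastases than in normal bladders, with a median of -0.024. None of 19 basement membrane genes other than laminins had a p under 0.05 in any comparison. Of 20 other integrin ligands, 19 were measured. The fibrinogen genes Fga, Fgb and Fgg had 7.331, 9.948 and 10.163 on M2, against at most 5.721, 5.932 and 5.516 on any other array. M2 is 1 of the 2 metastases among the 12 arrays, and the part of tissue around the metastasis was not tested. Tgfb1, whose latent form Itgb6 and Itgb8 integrins bind, was higher in metastases than in tumour bladders by 0.50 (limma adjusted p = 0.845). Its difference was 0.74 among the 12 arrays and 0.26 within the set. Cdh1, the E-cadherin that Itgae integrin binds, was lower in metastases than in normal bladders by 0.98 (limma adjusted p = 0.721). Its difference was -2.02 among the 12 arrays and -0.062 within the set. In tumour against normal bladders, Madcam1, the vessel ligand of the Itgb7 integrin, was lower by 0.32 (limma adjusted p = 0.998). Of the adaptors Itgb1bp2, a muscle protein that binds Itgb1, was lower by 0.28 (limma adjusted p = 0.998). Both differences were larger within the low-contrast set (-0.46 for Madcam1 and -0.45 for Itgb1bp2) than among the 12 arrays (-0.18 and -0.10). None of these lists had a p under 0.05 in the comparisons of treated bladders.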

How the data were processed

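The deposited values are log2 expression levels, 1 column per array. Per the submitters' processing notes the authors used RMA in Affymetrix Expression Console; versions and genome build are not given in the sources used here, and the base 2 follows from RMA. Per the labels, RNA came from a kit for fixed, paraffin-embedded tissue. Of 65956 rows, 30604 had exactly 1 symbol in the platform annotation (827 symbols updated), and the row with the highest mean was kept for 355 genes with several rows, leaving 30142 genes. Rows with several symbols (2146, among them that of Itga1) or none (33206) were not used. The row of Lamb3 carries 2 gene identifiers. Values ran from 2.16 to 22.0, with 96 to 222 rows per array above 16.

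Arrays were grouped by their labels. limma 3.58.1 (R 4.3.3) fitted all 5 groups together, and 5 comparisons were tested 2-sided with Benjamini-Hochberg adjustment over 30142 genes (threshold 0.05). PALBO-MET, a lone array, was not tested as a group. The fit was tested on simulated data. The low-contrast set comprises arrays with an SD above 0.3 in dim rows (mean 4.5 to 5.0) and, over the 5317 rows whose mean reached 7, no correlation with another array of 0.25 or more. Correlations used 100000 permutations, or all pairings for 8 arrays (Python 3.11.15, scipy 1.17.1). Named genes are, per comparison, the 3 members with the smallest p in each direction; others are given by range. For likeness, Itgb2, Itgb4 and Itga8 were searched. The members and lists were chosen with earlier results of these data known. Motif matches in RefSeq promoters were counted on both strands. Alternatives were array weights, other normalisations, variance priors and filters, row choices, a replicate block, each array left out, PALBO-MET as a metastasis and the low-contrast set. Some engineered alleles are not reported here. The number of arrays limits the precision.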

Additional observations from a re-analysis of the deposited data

Results flagged for a closer look

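In groups of 4 to 10 arrays, the gap between the highest or lowest array and its nearest neighbour was set against the range of the group (Dixon's test). Of 105 combinations of gene and group, 11 exceeded the 95% limit. About 1 in 20 would do so for independent values with 1 normal spread per group. Here each group mixes low-contrast and other arrays, and the genes share arrays. That share is therefore no reference for the 11, which only point to arrays. TUMOR6 accounted for 5 among tumour bladders: Lamb1 was highest there at 8.67, Itgb5 at 8.31, Lamc1 at 7.89 and Itgav at 7.52, and Itga7 was lowest at 5.37. TUMOR6 thus stood apart in a laminin beta and gamma chain and in both chains of a vitronectin receptor, and the 8 fibroblast genes measured averaged 8.71 on it.

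Among metastases, Itgb3 was highest on M4 at 5.44 and Lama3 on M3 at 5.53. Among normal bladders, CT6 was highest for Itgb5 at 7.69 and for Itgal at 5.51, CT1 was highest for Itgb3 at 5.54, and CT4 was lowest for Lamc3 at 5.24. M3, M4, CT4 and CT6 belong to the low-contrast set.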

How the results depend on the processing

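The count of members past the test stayed at 0 under all 105 alternative values, those with single arrays left out and the replicate block (0 in each of the 5 comparisons) included. The median differences moved by less than the spread between arrays in 209 of 210 alternatives, a limit that lets a median near 0 change sign. When single arrays were left out, the integrin median of tumour against normal bladders ran from -0.033 to 0.032. The laminin median of metastases against tumour bladders ran from -0.055 to 0.041. Without the low-contrast set, the integrin median of metastases against normal bladders was 0.026. Named members kept their direction in 626 of 630 values. Those that reversed were Itgam within the low-contrast set (-0.25 against tumour and -0.20 against normal bladders), Itgb5 of treated against tumour bladders under array weights (0.028), and Itgb6 of treated against normal bladders, with a range of -0.015 to 0.31 when single arrays were left out, the lowest without PALBO3; the cause was not tested. The smallest adjusted p of a member in any alternative was 0.162, for Itgb2 of metastases against normal bladders under array weights. Over all genes, 1 passed for metastases against normal bladders in a fit of only those 2 groups, and 3 passed for metastases against either bladder group without the low-contrast set, against 0 over all arrays. Array weights raised the genes with an unadjusted p under 0.05 to 2511 (8.33%), against 103, in treated against tumour bladders (members to 3, against 0). In treated against normal bladders they raised them to 3012 (9.99%), against 108 (members to 4, against 0). In tumour against normal bladders they raised them to 3064 (10.2%), against 1281. PALBO1 had a weight of 4.951, against 0.6691 for PALBO2 and 0.4975 for PALBO3, so the weighted treated mean rested mostly on PALBO1. In metastases against normal bladders array weights raised the members to 11, against 6, beside 13% of all genes. Leaving M1 out lowered the members to 2 (Itgb2 and Lama3) there, beside 4.9% of all genes. In metastases against tumour bladders it lowered them to 0, against 3, beside 3.88% of all genes. Centring the arrays on their medians left 4 members against normal bladders, beside 6.73% of all genes, and 1 (Itgb2) against tumour bladders, beside 5.56%. Same-numbered arrays of different groups did not deviate together (20 pairs, median correlation -0.088), and 1 of 18 arrays correlated best with its own number, so the numbers were not taken as a pairing. The low-contrast set holds no treated bladder, so no treated comparison could be made within it. A filter on dim genes left 32 members.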
